A study of Mus musculus with 6 samples.

Results

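The first hour of a time course in NIH3T3 cells, an established line of mouse embryo fibroblasts, was described by setting the arrays taken at 60 minutes against those taken at 0 minutes. The comparison used 4 of the 6 arrays of the series and the 34945 of 45101 probe sets that are paired with exactly 1 gene symbol, which cover 18193 genes. Of these genes, 10916 passed a filter on low level and were tested. The 4 arrays were cells with wild-type LPAR1 at 0 minutes, cells with mutant LPAR1 at 0 minutes, and the same pair at 60 minutes, with 1 array each. The receptor LPAR1 binds lysophosphatidic acid, a serum lipid that makes fibroblasts grow and change shape, and signals through G proteins. The labels name no agent given at 0 minutes, no identity for the mutation, and no number of cultures or clones. The 2 arrays of a time point therefore differ in genotype, and the p-values below measure the spread between arrays, which may be technical. The change was asked for each gene within its genotype, so that wild-type was compared with wild-type and mutant with mutant.

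Resting fibroblasts that meet a growth stimulus switch on immediate early genes within minutes, using proteins that are already in the cell. Their products are largely transcription factors, ligands and feedback inhibitors, and most of their transcripts are short-lived. ERK kinase signalling and the factor SRF, with its partners of the ternary complex and MRTF families, are the best known routes to these genes in fibroblasts. SRF binds a DNA element called the CArG box. Genes kept high by FoxO factors in resting cells fall when PI3 kinase and AKT inactivate those factors.

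Values are deposited intensities per probe set on a linear scale, and a gene with several probe sets is read from the brightest of them on average. Differences were taken on the scale log2(intensity + 16), so folds are on that scale too and understate changes at low intensity. Genes in the lowest 40% by mean level, under an intensity of 39.2, were left out. In every series of values below, the wild-type array is given before the mutant array. Mean intensity per array ran from 299 to 308 over the 6 arrays. For Actb, the 5' control probe set divided by the 3' set, a measure of RNA quality and labelling, gave 0.579 and 0.505 at 0 minutes and 0.650 and 0.683 at 60 minutes. The same ratio for Gapdh was 1.02 and 0.954 at 0 minutes and 1.03 and 1.03 at 60 minutes. The Actb ratio moved with the comparison, and its part in the results was not tested. Of 12 fibroblast markers, 11 were above the filter level, with a summed intensity of 60070 to 61290 at 0 and 59500 to 60380 at 60 minutes, and Fap was below it on all 4 arrays. Summed epithelial markers lay at 1704 to 1769 and then 1561 to 1573, with 4 of 8 above the filter level. Among these the keratin Krt14 was the brightest, while Krt8, Krt18 and Krt19 were not above it. Markers of skeletal muscle and adipocytes were all below the filter level, and 1 of 6 endothelial, 2 of 6 immune and 2 of 6 neural markers were above it.

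At 60 minutes 801 genes were higher and 1168 were lower than at 0 minutes, at an adjusted p of 0.05 (limma, Benjamini-Hochberg over all genes tested). That is 7.34% of the genes tested for the rises and 10.7% for the falls. The rises were larger: the median log2 change was 0.49 among the higher genes and -0.37 among the lower genes, against -0.07 over all genes tested. Because bulk RNA was measured, fewer cells expressing a gene and less RNA per cell cannot be told apart. The split between directions depended on the scaling between arrays. With array medians set equal, which moved the median of all genes to -0.01, 1015 genes were higher and 622 lower, so that 62.0% of the calls were higher against 40.7% as deposited. Single arrays also moved the lower count, to 578 when the 0 minute array of wild-type cells was left out and to 534 when that of mutant cells was, and likewise to 718 and 631 for the 60 minute arrays. The higher count was 525 without the mutant array at 60 minutes. Over all 34945 probe sets, with no filter, 1315 (3.76%) were higher and 1426 (4.08%) lower.

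Large changes went mostly upward. At least 2-fold in both genotypes, 131 genes were higher (1.2% of those tested) and 29 were lower (0.266%). With an offset of 64 in place of 16 only 8 were lower, and 12 with the filter at the 60th percentile, while 106 and 107 were higher under these settings. At 4-fold the counts were 44 and 2, at 8-fold 20 and 1, and at 16-fold 10 and 0. At 1.5-fold they were 280 and 142, and at 1.2-fold the order turned, with 609 higher and 814 lower. Of the 131 genes, 20 had a mean at 0 minutes below the filter level, and they passed the filter only through their 60 minute level or the later arrays. Of the 29 lower genes, 6 fell below the filter level at 60 minutes. Where several probe sets above the filter level target one of the 131 genes, 80 of the 86 other sets moved up and 76 were called higher, and none was called lower. For the 29 lower genes, all 15 such sets moved down and 12 were called lower. Agreement was weaker over all called genes. For the 801 higher genes, 668 of 763 such sets moved up, 392 were called higher and 13 lower. For the 1168 lower genes, 754 of 817 such sets moved down, 201 were called lower and 5 higher.

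**Figure D1:**
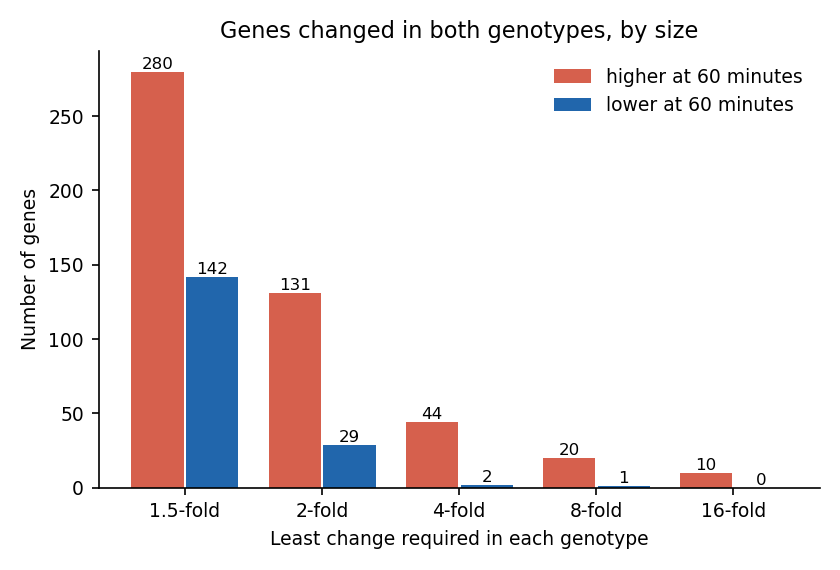
Number of genes (y axis) changed at least as much as the fold on the x axis in wild-type and in mutant cells alike, from 60 against 0 minutes. At 1.5-fold 280 genes were higher and 142 lower, while at 4-fold 44 were higher and 2 lower.

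The largest rise was that of Egr3, a zinc finger transcription factor induced by growth signals. Its intensity was 83.4 and 79.6 at 0 minutes and 4837 and 4625 at 60 minutes. The log2 change was 5.61 ± 0.085 (SE; limma adjusted p = 7.53e-11), 48.7-fold on the log scale used. A second Egr3 probe set, at a mean intensity of 68.7, moved by -0.22, so the rise rests on 1 of the sets above the filter level. Dusp5, a nuclear phosphatase that inactivates ERK, went from 19.1 and 32.4 to 1297 and 1474, a log2 change of 5.09 ± 0.11. Its 0 minute values lay below the filter level, and with an offset of 64 in place of 16 the change was 4.02. Egr2, a paralog of Egr3, rose from 113 and 105 to 3388 and 2898 (log2 4.66 ± 0.088). Errfi1, a cytosolic inhibitor of EGF receptor kinases, was already at 362 and 389 and reached 7583 and 7345 (log2 4.26 ± 0.084). These genes were picked by the size of their rise, so the gap between their 0 and 60 minute arrays is no separate evidence.

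Of the 15 genes with the largest rise, 8 have a promoter window in the RefSeq table of build GRCm38.p6, and 2 of these hold a CArG box and 1 the cyclic AMP response element TGACGTCA in the 250 bases before the start. Those 3 are printed here because they are the largest rises with either motif. The matches are in capitals, and every sequence is given 5' to 3' on the plus strand, ending at the base before the annotated start. The Dusp5 window is chr19:53528895-53529144, with CArG boxes side by side from 82 to 73 and from 72 to 63 bases before the start. The Egr2 window is chr10:67537316-67537565, with its CArG box from 72 to 63 bases before the start, and 4 of the 5 Egr2 windows hold one. The Errfi1 window is chr4:150854820-150855069, with TGACGTCA from 51 to 44 bases before the start. A match describes the letters only.
Dusp5: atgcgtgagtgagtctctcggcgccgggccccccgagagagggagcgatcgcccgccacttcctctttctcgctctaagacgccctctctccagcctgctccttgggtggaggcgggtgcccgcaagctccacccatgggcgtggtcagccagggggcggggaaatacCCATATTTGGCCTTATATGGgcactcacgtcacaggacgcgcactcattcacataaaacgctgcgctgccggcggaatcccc
Egr2: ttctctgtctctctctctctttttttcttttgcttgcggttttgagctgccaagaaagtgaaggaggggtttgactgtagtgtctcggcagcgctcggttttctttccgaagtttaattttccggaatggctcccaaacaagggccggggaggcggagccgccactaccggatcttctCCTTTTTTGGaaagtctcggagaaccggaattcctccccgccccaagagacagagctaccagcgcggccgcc
Errfi1: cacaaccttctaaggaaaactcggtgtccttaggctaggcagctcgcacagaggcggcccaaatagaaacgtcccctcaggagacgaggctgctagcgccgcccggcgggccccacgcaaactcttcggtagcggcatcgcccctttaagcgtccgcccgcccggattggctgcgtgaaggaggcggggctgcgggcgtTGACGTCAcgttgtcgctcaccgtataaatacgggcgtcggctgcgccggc

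A CArG box lay in 13 of the 126 windows (10.3%) of the genes at least 2-fold higher in both genotypes, against 129 of 11335 windows (1.14%) of the tested genes and 482 of all 32851 windows (1.47%). None of the 32 windows of the genes at least 2-fold lower held one, which for so few windows is close to the 1.14% of the tested genes. Counted by gene, 10 of the 94 genes with a window held a CArG box among those at least 2-fold higher. They were Dusp5, Egr2, the transcription factor Srf itself, Lurap1l, the mRNA decay factor Zfp36, the muscle actins Acta1 and Actc1, the actin-bundling protein gene Lima1, Mideas, and Vcl, which encodes the adhesion protein vinculin. The share was 3 of 31 (9.68%) among genes at least 4-fold higher and 7 of 63 (11.1%) among those between 2-fold and 4-fold. These counts are too small to tell whether it grew with the size of the change at that end. The share was 7.38% between 1.5-fold and 2-fold, 2.52% among the smaller called rises, 1.11% among genes not called and 1.05% among genes called lower. TGACGTCA lay in 4.76% of the windows of the 2-fold higher genes, against 2.58% of the windows of tested genes and 1.55% of all windows. The AP-1 motif TGANTCA lay in 3.97%, 4.52% and 6.75% of them. Windows of genes are not independent, and these shares are given without a test.

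**Figure D2:**
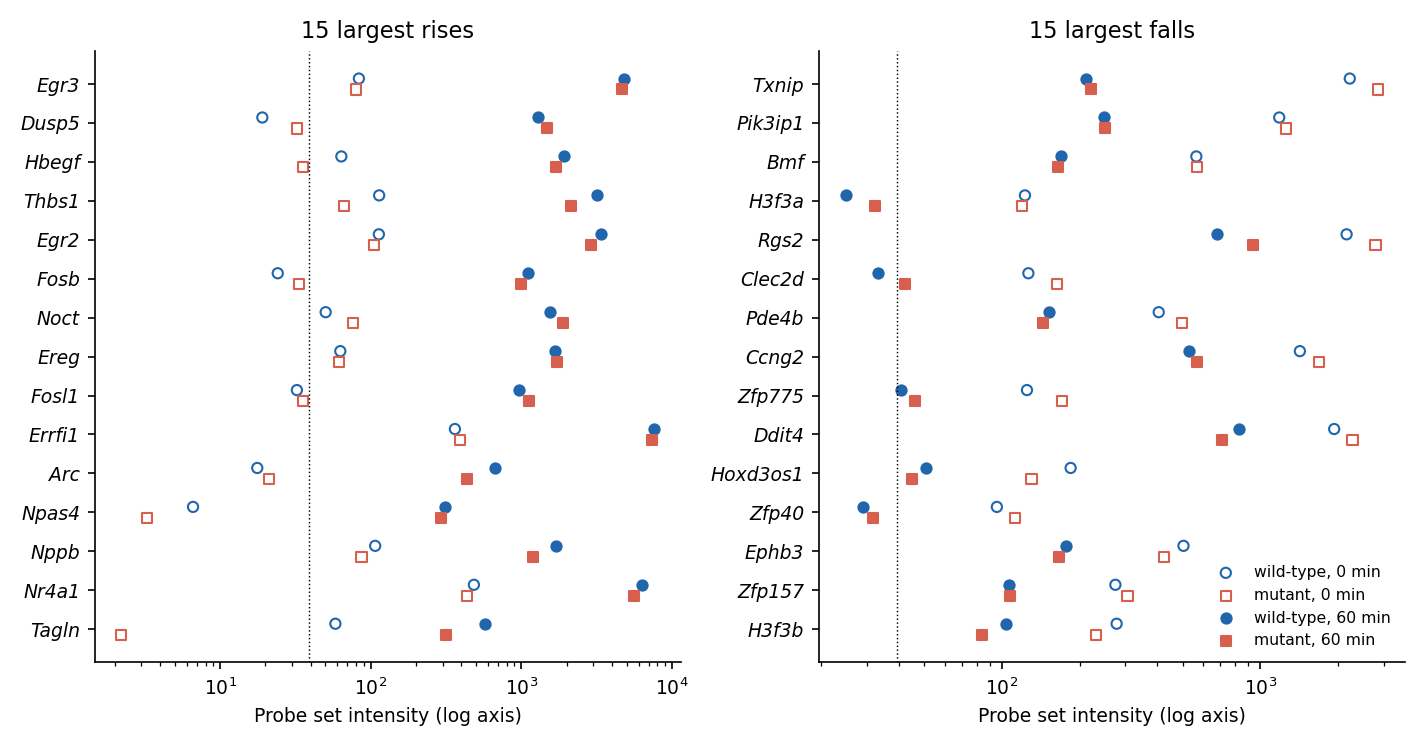
Probe set intensity (x axis, log scale) of the 15 genes with the largest rise, left, and the 15 with the largest fall, right, on each of the 4 arrays. Open symbols are 0 minutes and filled symbols 60 minutes, circles are wild-type and squares mutant, and the dotted line is the filter level of 39.2. Txnip went from 2220 and 2858 to 213 and 221, and the wild-type and mutant arrays of a time lie close together for most genes, with Tagln at 0 minutes apart.

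Secreted growth factors rose: 11 of 18 tested were higher and none lower (limma; 3 lower at an unadjusted p of 0.05), with a median log2 change of 0.49. Hbegf, a membrane-bound ligand of the EGF receptor, went from 63.8 and 35.6 to 1933 and 1710 (log2 4.84 ± 0.11). Ereg, epiregulin, a further ligand of that receptor family, went from 62.8 and 61.3 to 1674 and 1728 (log2 4.46 ± 0.16). Both were near the filter level before and among the 15 largest rises after. Ccn2, a matricellular protein also known as connective tissue growth factor, rose from 832 and 587 to 9338 and 7373 (log2 3.54 ± 0.055), and Inhba, which encodes the activin A subunit, rose from 379 and 324 to 1361 and 1309 (log2 1.88 ± 0.12). Gdnf (log2 1.13), Pdgfa (0.75), Edn1 (0.72), Csf1 (0.60), Fgf7 (0.56), Bdnf (0.42) and Vegfa (0.37) were also higher. The members that did not pass were Tgfa (-0.35), Vegfb (-0.27), Tgfb3 (-0.19), Tgfb1 (-0.02), Tgfb2 (0.05), Pdgfc (0.14) and Nrg1 (0.23). Without genotype in the model, 6 of the 18 passed. Without either 120 minute array 2 members were called lower. Over 16 alternative settings (other offsets, filters, scalings and models, and arrays left out), the Vegfa call was lost in 5.

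Of 8 cytokines and chemokines tested, 4 were higher and none lower (limma; 1 lower at an unadjusted p of 0.05). Cxcl1, which attracts neutrophils, went from 129 and 189 to 544 and 589 (log2 1.75 ± 0.12). Ccl2, which attracts monocytes, went from 58.2 and 185 to 112 and 410 (log2 0.94 ± 0.097), so that the mutant array at 0 minutes lay above the wild-type array at 60 minutes and the groups overlapped. Ccl7, its neighbour in function, showed the same order of arrays, at 88.3 and 288 and then 139 and 387 (log2 0.49 ± 0.11). Il11 went from 25.1 and 21.4 to 69.4 and 38.5 (log2 0.80 ± 0.23; limma adjusted p = 0.0384), with a 0 minute mean below the filter level, and its call was lost in 8 of the 16 alternatives. The calls of Ccl2 and Ccl7 hold only with the arrays paired by genotype. The count was 2 without the wild-type array at 0 or without the mutant array at 60 minutes, and 1 without genotype in the model.

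Among the receptors of lysophosphatidic acid and of the related lipid sphingosine 1-phosphate, with the enzymes that make or remove these lipids, 2 of 15 were higher and 2 lower. That is 13.3% in each direction, against 7.34% higher and 10.7% lower of all genes tested. Lpar1 itself was at 1335 and 1496 and then at 1290 and 1514 (log2 -0.02 ± 0.055; limma adjusted p = 0.868). S1pr3, a sphingosine 1-phosphate receptor, rose from 222 and 251 to 649 and 676 (log2 1.43 ± 0.069), and Sphk1, the kinase that makes its ligand, rose from 105 and 81.1 to 204 and 162 (log2 0.87 ± 0.081). S1pr2, whose arrays overlapped between the times, fell by 0.29 and Lpar6 fell by 0.31 on the log2 scale. Those 2 falls lost their call in 6 and 8 of the 16 alternatives, the setting with equal array medians among them. The list had 0 lower members without either 0 minute array or without the mutant array at 60 minutes, 1 without the wild-type array at 60 minutes, and 4 without either 120 minute array.

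Among heterotrimeric G protein subunits and RGS proteins, which speed the shut-off of G protein signals, 3 of 23 were higher and 2 lower. These were 13.0% and 8.7% of the list, against 7.34% and 10.7% of all genes tested. The called members were RGS genes and an arrestin. Rgs16 rose from 24.2 and 36.9 to 268 and 346 (log2 2.80 ± 0.18). Its 0 minute mean lay below the filter level, and at offset 64 the change was 1.97. In the opposite direction, Rgs2 fell from 2158 and 2793 to 681 and 940 (log2 -1.598 ± 0.11). Its other probe sets, at means of 1121, 618 and 58.2, moved by -1.60, -2.02 and -0.30. Rgs3 went from 198 and 271 to 497 and 589 (log2 1.17), and Rgs14 rose by 0.44, a call lost in 5 of the 16 alternatives. The second lower member was Arrb2 (log2 -0.37), whose product is an arrestin. No G protein subunit passed. The lower count was 1 without the mutant array at 0 or without either array at 60 minutes.

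Immediate early genes moved most as a group, in a list made up mostly of transcription factors that also holds Arc. Of 33 tested, 30 were higher and 1 was lower, with a median log2 change of 1.55, and the higher count stayed at 29 or 30 when any 1 array was left out. Fosb rose from 24.1 and 33.3 to 1109 and 991, and Fosl1 from 32.3 and 35.7 to 958 and 1122 (log2 4.58 ± 0.16 and 4.40 ± 0.088). Both are FOS family members that pair with JUN proteins to form AP-1. Their 0 minute means lay below the filter level, and at offset 64 their changes were 3.59 and 3.49. Fos itself changed less, from 633 and 595 to 2516 and 1486 (log2 1.63 ± 0.17). Its 0 minute intensity was already well above the filter level, and its call was lost without the genotype block. Fosl2 (1.68), Junb (2.27) and Jun (0.81) were higher, while Jund (0.08) did not pass.

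The orphan nuclear receptor Nr4a1 went from 484 and 434 to 6280 and 5614 (log2 3.65 ± 0.050). Its paralogs Nr4a3 (log2 3.57) and Nr4a2 (1.12) were also higher, as were the nuclear factor Csrnp1 (3.44) and the stress factor Atf3 (2.95). Srf rose by 2.39, Maff by 2.25, Myc by 2.02 and Egr1 by 1.39. For Myc, a driver of growth and ribosome synthesis, the arrays read 487 and 449 and then 1888 and 2008. Klf family members with growth-regulating roles rose less, Klf10 by 1.17, Klf4 by 0.76, Klf6 by 0.62 and Klf2 by 0.51. The one lower member was Cebpd (log2 -0.22), which was not called without either 0 minute array or without the mutant array at 60 minutes, and Crem (0.01) did not pass. Other members of the MYC network moved little: 2 of 10 were higher, Myc and Mlxip, and the MYC antagonist Mxd4 was lower by -0.28, with the Mlxip and Mxd4 calls lost in 5 and 7 of the 16 alternatives.

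Genes best known from neurons and heart muscle were among the 15 largest rises. Arc, a postsynaptic protein, went from 17.6 and 21.1 to 665 and 435 (log2 3.97 ± 0.17). Npas4, an activity-regulated factor of neurons, went from 6.61 and 3.27 to 312 and 291, and Nppb, which encodes the natriuretic peptide BNP of the heart, from 107 and 86.8 to 1702 and 1195. The 0 minute values of Arc and Npas4 lay below the filter level, and their log2 changes at offset 64 were 2.85 and 2.41 in place of 3.97 and 3.93. Neural markers did not move with them: their summed intensity was 180 to 203 at 0 and 161 to 204 at 60 minutes.

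Feedback inhibitors of receptor kinase and ERK signalling had 12 of 21 members higher and none lower (limma; none at an unadjusted p of 0.05), with a median log2 change of 0.43. Besides Dusp5 and Errfi1, Phlda1, a pleckstrin-homology protein, went from 647 and 622 to 5734 and 4825 (log2 3.02 ± 0.060). The ERK phosphatases Dusp6 (log2 2.40) and Dusp4 (2.14) and the Sprouty protein gene Spry2 (2.26) were higher. So were Socs3 (1.67), Dusp14 (1.57), Dusp8 (1.47), Dusp16 (0.43) and Spred2 (0.42). Members of the same families did not move alike: Spry1 (-0.01), Spred1 (0.14) and Dusp7 (-0.11) did not pass. Called higher were 11 to 13 when any 1 array was left out. Trib1, a pseudokinase that restrains MAP kinase and C/EBP proteins, rose from 56.2 and 36.1 to 575 and 619 (log2 3.32 ± 0.13).

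JAK-STAT feedback showed the same uneven picture within a family. Of 20 cytokine receptor and SOCS genes, 5 were higher and 3 lower. Socs3, which blocks JAK kinases, went from 514 and 483 to 1629 and 1611 (log2 1.67 ± 0.076), and Socs1 from 33.5 and 25.4 to 86.9 and 88.4 (log2 1.195 ± 0.12). The 0 minute mean of Socs1 lay below the filter level, and its change at offset 64 was 0.70. Socs5 rose by 0.40, and Socs2 (0.04) did not pass. The 3 lower genes were Stat5a (-0.42), Stat5b (-0.29) and Il6st (-0.21), and the lower count was 1 without any 1 array at 0 or 60 minutes. The number of higher members was 3 without the mutant array at 60 minutes.

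Actin cytoskeleton genes that SRF and MRTF activate had 22 of 29 members higher and 1 lower, with a median log2 change of 0.59. Acta2, smooth muscle actin, went from 742 and 723 to 7237 and 7002 (log2 3.25 ± 0.047). Tagln, an actin-binding protein of smooth muscle, went from 58.3 and 2.21 to 570 and 316 (log2 3.58 ± 0.22). Actg2 went from 13.4 and 25.99 to 102 and 141, and Acta1 from 50.6 and 38.2 to 250 and 116. Tagln and Actg2 had 0 minute means below the filter level. At offset 64 their changes were 2.45 and 1.14 in place of 3.58 and 1.95. Actins are near-identical paralogs, and whether these probe sets separate them was not tested. The Acta1 call was lost without the genotype block. Smaller rises ran from Tpm1 (1.19), Fhl2 (1.16) and Vcl (1.13) down to Actb (0.24) and Myh9 (0.18). Tpm3 (0.13), Tln1 (0.10), Cap1 (0.04), Cfl1 (0.04), Itga5 (-0.01) and Mylk (-0.0009) did not pass. The lower member was Ahnak2 (-0.29). Members called higher numbered 20 to 22 when any 1 array was left out. The 5' to 3' ratio of the Actb control sets given above moved in the same direction as Actb.

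Genes that YAP and TEAD factors activate had 10 of 21 members higher and 1 lower, with a median of 0.24. After Ccn2, the largest were Ankrd1, a stretch-responsive cofactor, from 211 and 184 to 1758 and 1340 (log2 2.86 ± 0.083), and the kinase gene Nuak2, from 155 and 133 to 1079 and 908 (log2 2.66 ± 0.068). Ccn1, a matricellular protein, went from 1216 and 1417 to 7403 and 7858 (log2 2.52 ± 0.11), and a second probe set, at a mean intensity of 4357, moved by 3.09. The other two above the filter level, at means of 348 and 353, moved by -0.27 and -0.33. Gadd45b rose by 2.05 and Lats2, a kinase that inhibits YAP, by 0.66. Tead1 (-0.03), Axl (-0.04) and Ptpn14 (0.01) did not pass. The lower member, Amotl1 (-0.20), was not called without either 0 minute array or without the mutant array at 60 minutes, and 2 members were called lower without the wild-type array at 60 or without either 120 minute array. Members of the SRF and YAP lists were chosen as known targets, so these counts do not tell which factor acted.

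Integrins and focal adhesion proteins had 8 of 21 members higher and 1 lower. Vcl, vinculin, went from 2319 and 2243 to 5106 and 4888 (log2 1.13 ± 0.051). Bcar1, the adaptor p130Cas, went from 550 and 624 to 1099 and 1179, and Zyx, zyxin, from 912 and 628 to 1401 and 1284. Of the integrins, Itgb1 rose by 0.22 and Itgb5 fell by 0.26 on the log2 scale, and Itgav (0.01) and Itga5 (-0.01) did not pass. The higher count was 4 without the mutant array at 0 minutes, 5 without the mutant array at 60 minutes and 3 without genotype in the model, and the lower call was lost without the wild-type array at 0 or the mutant array at 60 minutes.

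Plasminogen activators and clotting genes had 4 of 8 members higher. Plaur, the urokinase receptor, rose from 78.1 and 63.7 to 589 and 500 (log2 2.69 ± 0.085), and its ligand Plau, urokinase, from 6.46 and 16.03 to 83.5 and 98.3 (log2 1.99 ± 0.14). The 0 minute mean of Plau lay below the filter level, and with an offset of 64 in place of 16 its change was 1.04. F3, tissue factor, which starts the clotting cascade, went from 724 and 1137 to 2987 and 3685 (log2 1.85 ± 0.096). Plat rose by 0.28, a call lost in 5 of the 16 alternatives. None of the 8 was lower, at an adjusted or an unadjusted p of 0.05 (limma).

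Extracellular matrix genes had 5 of 32 higher (15.6%, against 7.34% of all genes tested) and 1 lower (3.12%, against 10.7%). Their median was -0.02, which became 0.04 with array medians set equal. Thbs1, a matrix glycoprotein that activates latent TGF-beta, went from 114 and 66.3 to 3161 and 2145 (log2 4.67 ± 0.061), the fourth largest rise. The other 4 were the protease inhibitors Timp1 (0.80) and Timp3 (0.66), Tnc (0.46) and Fbln1 (0.43). Collagens Col1a1 (-0.08), Col1a2 (0.00) and Col3a1 (-0.02) and fibronectin, Fn1 (-0.03), did not pass. The lower member was Col5a1 (-0.21). Called higher were 3 without the wild-type array at 0 or the mutant array at 60 minutes, and 2 without genotype in the model. The lower count ran from 0 to 2: it was 0 without the mutant array at 0 or at 60 minutes, and 2 without the wild-type array at 0 or either 120 minute array.

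NF-kB subunits, inhibitors and targets had 8 of 16 members higher and 1 lower. Ptgs2, cyclooxygenase-2, which makes prostaglandins, went from 1322 and 1068 to 7622 and 7335 (log2 2.64 ± 0.076). The subunit gene Rel went from 32.4 and 31.1 to 106 and 111 (log2 1.39 ± 0.11), and Tnfaip3, the A20 inhibitor of the pathway, from 63.8 and 90.0 to 138 and 189 (log2 0.95 ± 0.13). The Rel mean at 0 minutes lay below the filter level, and at offset 64 its change was 0.85. Nfkbia (-0.08), Nfkb2 (0.00) and Vcam1 (-0.03) did not pass, and Tnip1 was lower by -0.25. The number of higher members was 5 without the mutant array at 60 minutes and 4 without genotype in the model. The Tnip1 call was lost without any 1 array at 0 or 60 minutes.

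Of 17 interferon-stimulated genes, none was higher (limma, adjusted) and 1 was higher at an unadjusted p of 0.05. Of all genes tested 7.34% were higher, so with 17 members a count of 0 is close to that share. Lower were 4 (23.5%, against 10.7% of all genes tested). Irf1, a factor of the interferon response, went from 525 and 523 to 225 and 279 (log2 -1.02 ± 0.097). Stat2, a signal transducer of interferon receptors, went from 81.7 and 48.6 to 35.0 and 24.4. Xaf1 (-0.28) and Ifit3 (-0.34) were also lower, and both lost the call in 7 of the 16 alternatives. Only Irf1 among the 4 kept its call in all 16. The lower count was 1 without the wild-type array at 0 minutes, 2 without any 1 of the other 3 arrays, and 1 without genotype in the model, and 1 member was called higher without either 120 minute array.

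Of the mRNA decay factors and BTG/TOB adaptors, which shorten the life of transcripts, 8 of 26 were higher and 3 lower. These were 30.8% and 11.5% of the list, against 7.34% and 10.7% of all genes tested. Btg2 went from 341 and 290 to 3201 and 2928 (log2 3.22 ± 0.070), and Zfp36, tristetraprolin, which binds AU-rich elements, from 224 and 230 to 838 and 721 (log2 1.71 ± 0.10). Zc3h12a, the RNase Regnase-1, went from 55.4 and 73.7 to 144 and 160 (log2 1.07 ± 0.11). The deadenylase subunits Cnot7 (0.01) and Cnot8 (-0.01) and the stabiliser Elavl1 (0.04) did not pass. Lower were Pnrc2 (-0.55), Pan3 (-0.26) and Pnrc1 (-0.24). Members called higher numbered 5 without the wild-type array at 0 or without either array at 60 minutes, and 4 without genotype in the model, and the lower count was 1 without any 1 array at 0 or 60 minutes.

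Circadian clock genes had 8 of 16 members higher and 2 lower. Noct, nocturnin, a rhythmic enzyme that removes phosphate from NADP cofactors, went from 50.2 and 75.9 to 1556 and 1884 (log2 4.47 ± 0.081). Nfil3, a repressor of clock output genes, went from 71.3 and 54.4 to 431 and 420 (log2 2.49 ± 0.090). Per2 rose from 56.6 and 43.4 to 272 and 238 (2.04 ± 0.089), with 0.38 for its dim second set, and Per1 from 198 and 176 to 624 and 625 (1.66 ± 0.077). Bhlhe40 (1.10), Cry2 (0.75), Cry1 (0.46) and Clock (0.25) were also higher, while Arntl (-0.01) and Nr1d1 (-0.01) did not pass. Per3 (-0.31) and Tef (-0.35) went down, so the Per paralogs did not move alike. The lower count was 0 without the wild-type array at 0 or the mutant array at 60 minutes and 1 without either of the other arrays at those times.

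TGF-beta pathway genes had 6 of 19 higher and 1 lower, and those that rose most are known restrainers of the pathway. Smad7, an inhibitory SMAD, went from 149 and 153 to 610 and 637 (log2 1.94 ± 0.10). The corepressor genes Skil and Tgif1 rose by 1.04 and 1.03, and Pmepa1 by 0.93, with 0.53 and 0.08 for its other sets, both dimmer. Smad3 was lower by -0.24, and that call was lost without the mutant array at 0 or either array at 60 minutes, and 2 members were lower without either 120 minute array. In the BMP list, 2 of 13 were higher and 2 lower (15.4% each, against 7.34% and 10.7% of all genes tested). Id1, a target of the pathway, went from 269 and 260 to 572 and 671 (log2 1.18 ± 0.084), and Id3 from 625 and 675 to 479 and 471. Smad6 fell from 180 and 198 to 118 and 105, and Smad1 rose by 0.25. The calls of Smad6, Id3 and Smad1 were lost in 2, 7 and 6 of the 16 alternatives, among them 1 or more that leave out an array.

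Chromatin modifiers and coregulators had 12 of 32 higher (37.5%) and 2 lower (6.25%), against 7.34% and 10.7% of all genes tested. Nab2, a corepressor of EGR factors, went from 295 and 323 to 841 and 923 (log2 1.47 ± 0.062). Dot1l, a histone methyltransferase, went from 121 and 140 to 360 and 410, and Arid5a from 53.3 and 30.6 to 185 and 141. The histone acetyltransferases Ep300 (-0.01) and Crebbp (0.05) and the deacetylases Hdac1 (-0.01) and Hdac2 (-0.02) did not pass. The higher count was 6 without the mutant array at 60 minutes and 5 without genotype in the model. Lower were the demethylases Kdm4a (-0.33) and Kdm3a (-0.31), and the lower count was 1 without the wild-type array at 60 minutes.

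**Figure D3:**
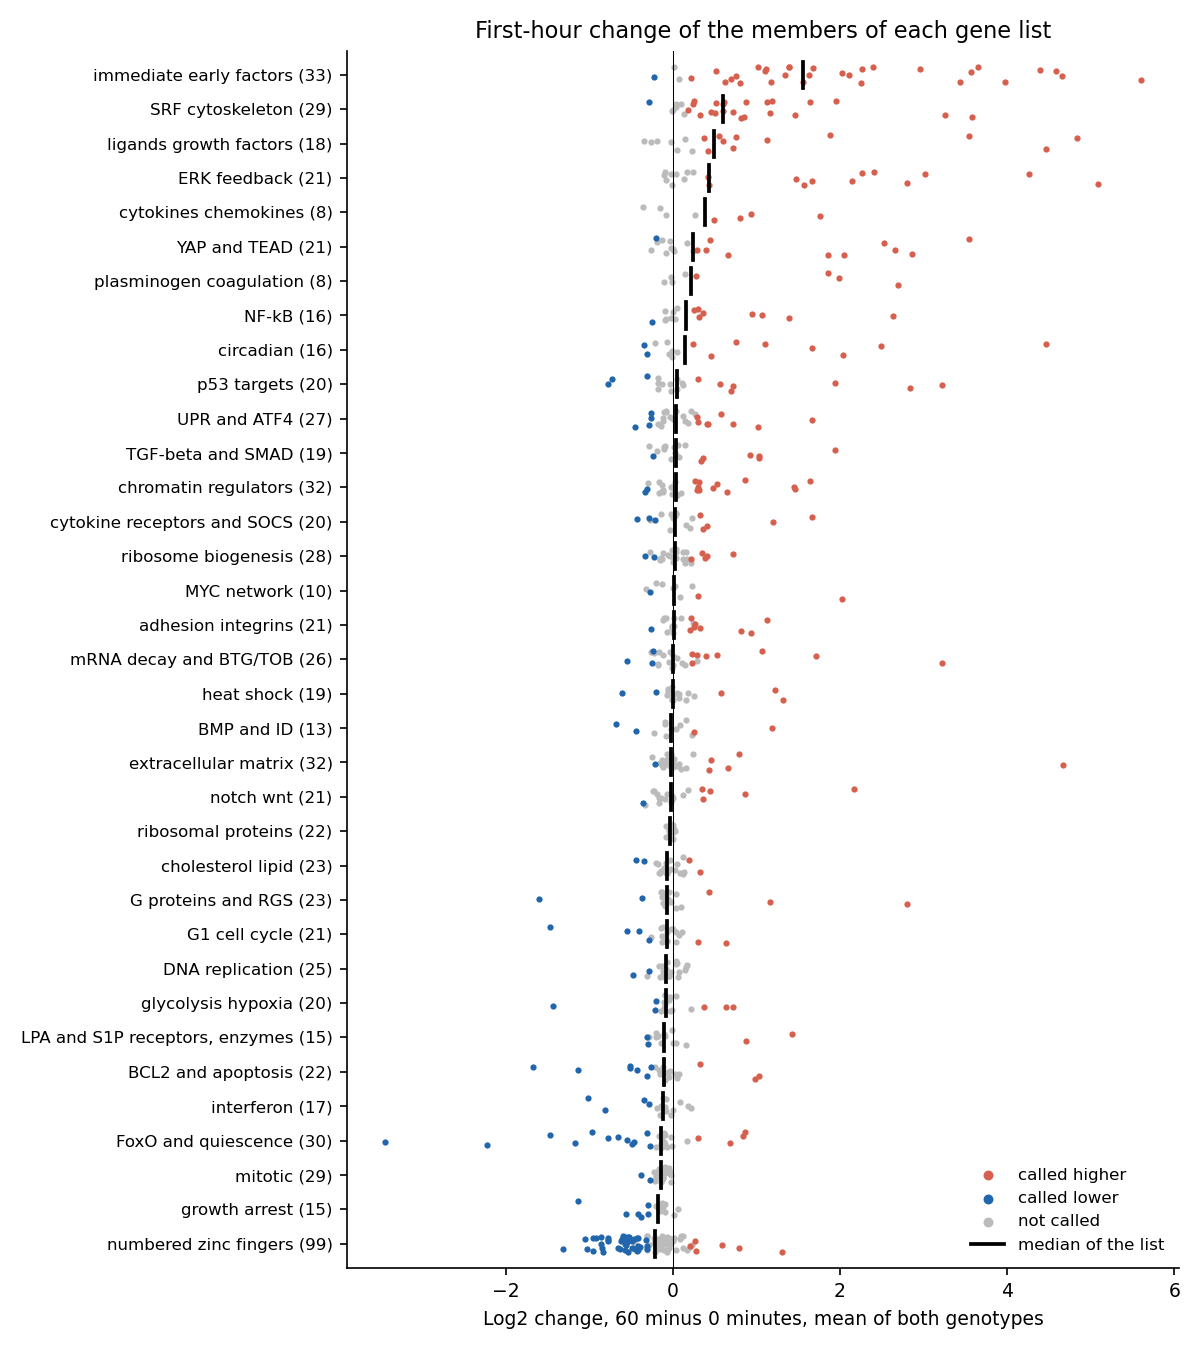
Log2 change from 0 to 60 minutes, mean of both genotypes (x axis), of every tested member of 35 gene lists (y axis, tested members in parentheses). Each point is a gene, coloured by its call, and the bar is the median of the list: 1.55 for immediate early factors at the top and -0.21 for numbered zinc finger genes at the bottom, against -0.07 over all genes tested.

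The falls were led by Txnip, which encodes a protein that binds thioredoxin and restrains glucose uptake. It went from 2220 and 2858 to 213 and 221 (log2 -3.44 ± 0.082; limma adjusted p = 1.7e-09). Pik3ip1, whose product binds and restrains PI3 kinase, went from 1184 and 1258 to 248 and 250 (log2 -2.22 ± 0.12). These were the 2 genes that fell at least 4-fold in both genotypes. Bmf, a BH3-only protein that promotes apoptosis, went from 566 and 568 to 169 and 165 (log2 -1.67 ± 0.14), with -0.21 for a second set just above the filter level. Ccng2, cyclin G2, which is high in resting cells, went from 1423 and 1689 to 529 and 569, and Ddit4, an inhibitor of mTORC1 signalling, from 1932 and 2275 to 825 and 714. The 15 were picked by the size of their fall in both genotypes, so the gap between their time points is no separate evidence.

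H3f3a and H3f3b, which encode the same replacement histone H3.3, both lay among the 15: the first went from 123 and 120 to 24.8 and 32.1, and the second from 278 and 232 to 103 and 84.1. Probe sets may not separate such paralogs. Sets paired with several genes were left out, so these falls need not hold for all H3.3 transcripts. Pde4b, a cyclic AMP phosphodiesterase, fell by 1.501 on the log2 scale, Clec2d, a C-type lectin, by 1.58, and Ephb3, an ephrin receptor, by 1.35. The noncoding RNA gene Hoxd3os1 went from 185 and 130 to 51.0 and 44.9. The rest of the 15 were the zinc finger genes Zfp775 (-1.45), Zfp40 (-1.37) and Zfp157 (-1.32). For those ending near the filter level the size depended on the offset: at 64 in place of 16, Zfp40 changed by -0.83, H3f3a by -1.004, Clec2d by -1.04 and Zfp775 by -0.97.

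Genes that FoxO factors activate or that are high in resting fibroblasts had 12 of 30 members lower and 4 higher, with a median of -0.14. Besides Txnip, Pik3ip1 and Ccng2, Atg14, a subunit that starts autophagy, went from 205 and 193 to 82.5 and 77.1 (log2 -1.17 ± 0.096). Pdk4 (-0.96), Sesn1 (-0.77), the ubiquitin ligase gene Fbxo32 (-0.65), the cell cycle inhibitor Cdkn1b (-0.54), Irs1 (-0.49) and Foxo3 itself (-0.46) were lower. Higher were Cited2 (0.87), Bcl6 (0.84), Irs2 (0.69) and Cdkn1a (0.31). Sod2 (-0.09), Cat (-0.09) and Foxo4 (-0.07), by contrast, did not pass. Without genotype in the model 7 were lower, and 10 to 12 when any 1 array was left out. Growth arrest genes gave 6 of 15 lower and none higher (limma; also none at an unadjusted p of 0.05), led by Ypel2, from 520 and 561 to 242 and 234 (log2 -1.13 ± 0.085), and 2 were lower without genotype in the model. Tsc22d3, Fzd4 and Ypel5, the next 3 of the list by size, each had another probe set above the filter level with a change of smaller size, -0.23, -0.03 and -0.03, while a further Tsc22d3 set moved by -0.50. The Fzd4 call was lost in 10 of the 16 alternatives.

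Apoptosis regulators moved both ways, with 7 of 22 lower (31.8%) and 3 higher (13.6%), against 10.7% and 7.34% of all genes tested. Casp2, an initiator caspase, went from 426 and 456 to 201 and 184 (log2 -1.13 ± 0.082). The BH3-only genes Bid (-0.52), Bcl2l11 (-0.52) and Bbc3 (-0.31) were lower along with Bmf, and Mcl1, an inhibitor of apoptosis, rose from 1922 and 2302 to 3827 and 4536 (log2 0.98 ± 0.056). The inhibitor gene Bcl2l1 also rose (0.32), but so did the effector Bok, from 220 and 274 to 475 and 570. Bcl2 (0.05), Bak1 (0.08) and Xiap (0.02) did not pass. Without genotype in the model 3 were lower and 2 higher.

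Numbered zinc finger genes, most of which encode DNA-binding repressors, had 41 of 99 members lower and 6 higher, with a median of -0.21. These were 41.4% and 6.06% of the list, against 10.7% and 7.34% of all genes tested. The lower count was 36 with array medians set equal, 30 to 46 without any 1 array, and 16 without genotype in the model. Zfp157 went from 275 and 306 to 106 and 107, Zfp12 from 219 and 236 to 107 and 101, and Zfp950 from 225 and 281 to 96.0 and 132. A second probe set of Zfp950 changed by -0.24. Zfp568 went the other way, from 163 and 179 to 460 and 431 (log2 1.31 ± 0.080), followed by Zfp948 (0.80) and Zfp715 (0.59). Called higher were 3 without either 0 minute array or without the mutant array at 60 minutes. Genes of this family lie in clusters of close copies, so probe sets may share signal between members.

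Replication and mitotic genes had few calls at 60 minutes, while G1 genes had calls in both directions. Of 25 replication genes, 2 were lower, Mcm7 (-0.47) and Cdt1 (-0.29), and none was higher (limma; 2 at an unadjusted p of 0.05). Of 29 mitotic genes, 2 were lower, Cdc25b (-0.38) and Kif20a (-0.27), and none higher (limma; 0 at an unadjusted p of 0.05). These were 8.0% and 6.9% of the lists, against 10.7% of all genes tested called lower. All 29 mitotic genes had a negative change, with a median of -0.15 as deposited and -0.08 with array medians set equal. The mitotic count was 1 without the wild-type array at 0 or the mutant array at 60 minutes and 0 without the mutant array at 0 minutes, and the replication count was 1 without the wild-type array at 0 or the mutant array at 60 minutes, with 1 higher without either 120 minute array. Of 21 G1 genes, 2 were higher (9.52%) and 4 lower (19.0%). Ccnl1 (0.64) and Cdkn1a (0.31) were higher and Ccng2 (-1.47), Cdkn1b (-0.54), Cdkn2d (-0.40) and Cdkn2c (-0.29) lower. The D-type cyclins Ccnd1 (0.11), Ccnd2 (-0.07) and Ccnd3 (0.03) did not pass. Of 22 ribosomal protein genes none passed in either direction (limma; none at an unadjusted p of 0.05 either), and their changes ran from -0.08 to 0.02.

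Stress lists were mixed. Of 20 p53 targets, 7 were higher and 3 lower: Plk3, a kinase, went from 33.9 and 53.8 to 418 and 397 (log2 2.84 ± 0.13), Plk2 from 1180 and 1007 to 4154 and 4320 (1.94 ± 0.069), and Sesn1 from 1371 and 1555 to 832 and 867. Mdm2 rose by 0.56, while Ccng1 (-0.13) and Zmat3 (0.05) did not pass. Of 27 unfolded protein and amino acid stress genes, 8 were higher (29.6%) and 4 lower (14.8%). Chac1, which degrades glutathione, went from 944 and 687 to 3014 and 2230 (1.67 ± 0.056), and Ppp1r15b from 1069 and 979 to 2177 and 1997, whereas Atf4 (-0.08), Asns (0.12) and Trib3 (0.04) did not pass. The lower count was 2 without the wild-type array at 0 or the mutant array at 60 minutes, and without genotype in the model 4 were higher and 0 lower. Of 19 heat shock genes, the co-chaperones Dnajb4 (1.32) and Dnajb1 (1.22) and Hspa1b (0.58) were higher and Dnajb2 (-0.61) and Hsph1 (-0.20) lower, with 1 lower call without the mutant array at 0 or either array at 60 minutes. The shares, 15.8% higher and 10.5% lower, compare with 7.34% and 10.7% of all genes tested.

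Metabolic lists had members called in both directions. Of 20 glycolytic and hypoxia genes, 3 were higher (15%, against 7.34% of all genes tested) and 3 lower (15%, against 10.7%). Slc2a1, the glucose transporter GLUT1, rose from 2275 and 2903 to 4012 and 4518 (log2 0.72 ± 0.076), Adm rose by 0.64 and Vegfa by 0.37, and Ddit4, Hk1 (-0.21) and P4ha1 (-0.21) were lower. The enzymes Ldha (-0.09), Pgk1 (-0.10) and Pkm (-0.05) did not pass, and the lower count was 1 without either 0 minute array or the mutant array at 60 minutes. Of 23 lipid synthesis genes, 8.7% were called in each direction, Hmgcs1 (0.33) and Msmo1 (0.19) higher and Dhcr7 (-0.45) and Mvd (-0.34) lower. Of the 4 other probe sets of Hmgcs1, those at means of 4616, 4614 and 1869 moved by 0.37, 0.37 and 0.52 and the dimmest, at 247, by -0.30. The other set of Msmo1, at a mean of 127, moved by -0.14, and the Msmo1 call was lost in 7 of the 16 alternatives. The higher lipid count was 1 without either 0 minute array or the mutant array at 60 minutes, and the lower count was 1 without either wild-type array and 4 without either 120 minute array. Of 28 ribosome assembly and polyamine genes, 5 were higher (17.9%) and 2 lower (7.14%), led by Odc1, which starts polyamine synthesis, from 983 and 938 to 1518 and 1656 (log2 0.71 ± 0.11). That count was 3 without the mutant array at 0 or at 60 minutes and 2 without genotype in the model. Lower were Nob1 (-0.33) and Polr1c (-0.22), with 0 lower calls without either wild-type array and 1 without the mutant array at 0 minutes. In a separate list of 21 Notch and Wnt pathway genes, 5 were higher (23.8%) and 1 lower (4.76%), with Hes1 first (2.17), then Ccn4 (0.86), Fzd7 (0.45), Maml1 (0.36) and Jag1 (0.34), and Fzd2 (-0.36) was lower. Hes1 had a 0 minute mean below the filter level, and its change at offset 64 was 1.16. The lower count was 2 without the wild-type array at 0 minutes, 3 without that at 60 minutes and 4 without either 120 minute array.

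Fibroblast marker genes stayed near their 0 minute level apart from Twist1, a mesenchymal transcription factor, which went from 236 and 207 to 449 and 556 (log2 1.12 ± 0.11). Pdgfra was lower by -0.30, but its other 2 sets above the filter level moved by 0.04 and 0.17. That call was lost without the mutant array at 0 and without the wild-type array at 60 minutes.

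**Figure D4:**
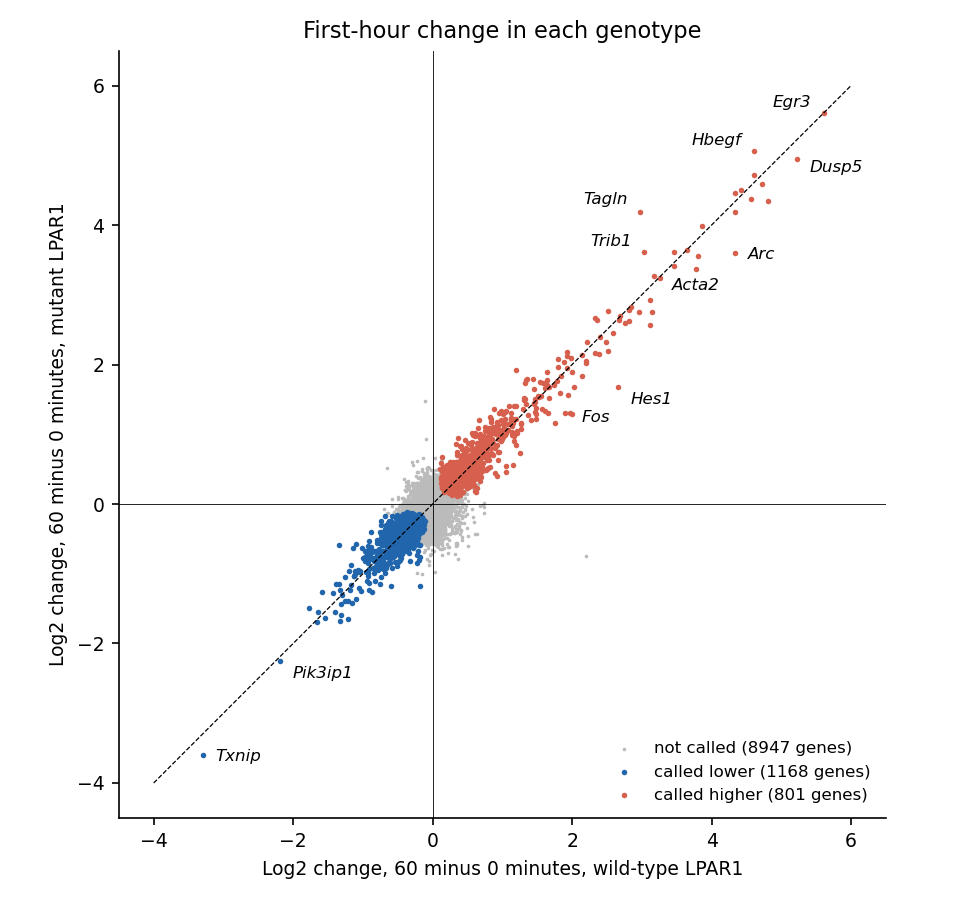
Log2 change from 0 to 60 minutes in wild-type (x axis) and mutant (y axis) cells for the 10916 genes tested, with 1 array per genotype and time. Red points are the 801 genes called higher, blue the 1168 called lower and grey the rest, and the dashed line marks equal change. Called genes lie along that line, with Tagln above it and Arc, Fos and Hes1 below.

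The changes of the genotypes followed each other closely. Across the 10916 genes, the wild-type and mutant changes correlated at Pearson's r = 0.86, a description across genes, which are not independent, with no array shared between the 2 changes. No called gene had opposite signs in the genotypes, but the call itself asks for a shared change, so that count is no separate evidence. Among the 131 genes at least 2-fold higher in both, the median log2 change of wild-type cells was 1.67 and that of mutant cells 1.70, and 63 of the 131 rose more in wild-type. Among all 801 higher genes, 287 (35.8%; Wilson 95% interval 32.6% to 39.2%, counting error only) rose more in wild-type cells. That share was 49.0% after quantile normalization and 29.6% with array medians set equal, and 31.6% with the mean of a gene's probe sets. Among the 1168 lower genes, 605 fell more in wild-type. The difference between the genotypes' changes had an SD of 0.19 over all genes tested, and 254 genes differed by at least 0.5 and 12 by at least 1. There were 22 genes changed at least 2-fold in wild-type alone and 46 in mutant alone, and 66 of these 68 went the same way in both.

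The genes whose change differed most between genotypes are given as values, because 1 array per genotype and time leaves no residual degrees of freedom to test a difference. Hes1, a transcriptional repressor of the Notch pathway, went from 14.8 to 179 in wild-type and from 3.18 to 45.3 in mutant cells, changes of 2.66 and 1.68 on the log2 scale. Both 0 minute values lay below the filter level. As a ratio of intensities the Hes1 rise was no smaller in mutant cells, so its gap depends on the offset. Arc changed by 4.34 and 3.60, Acta1 by 1.995 and 1.29 and Fos by 1.96 and 1.30. The Fos values at 60 minutes, 2516 and 1486, lay further apart than the 633 and 595 at 0 minutes. In the other direction, Tagln changed by 2.98 in wild-type and 4.19 in mutant cells, with a mutant value at 0 minutes of 2.21, where the size depends on the offset. Cdk5r1, an activator of the kinase CDK5, changed by 1.19 and 1.92, Trib1 by 3.03 and 3.61 and Fam110c by 0.67 and 1.203. Among falls, the noncoding RNA Lncpint changed by -1.34 and -0.59 and Zfp458 by -1.10 and -0.57, whereas the unplaced transcript 2610024D14Rik changed by -0.17 and -1.18. The transcript 9330198N18Rik changed by 1.05 and 0.45. Calls of Hes1, Acta1, Fos and Fam110c were lost without genotype in the model, Lncpint also without the wild-type array at 0 minutes, 9330198N18Rik in 3 and 2610024D14Rik in 8 of the 16 alternatives.

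**Figure D5:**
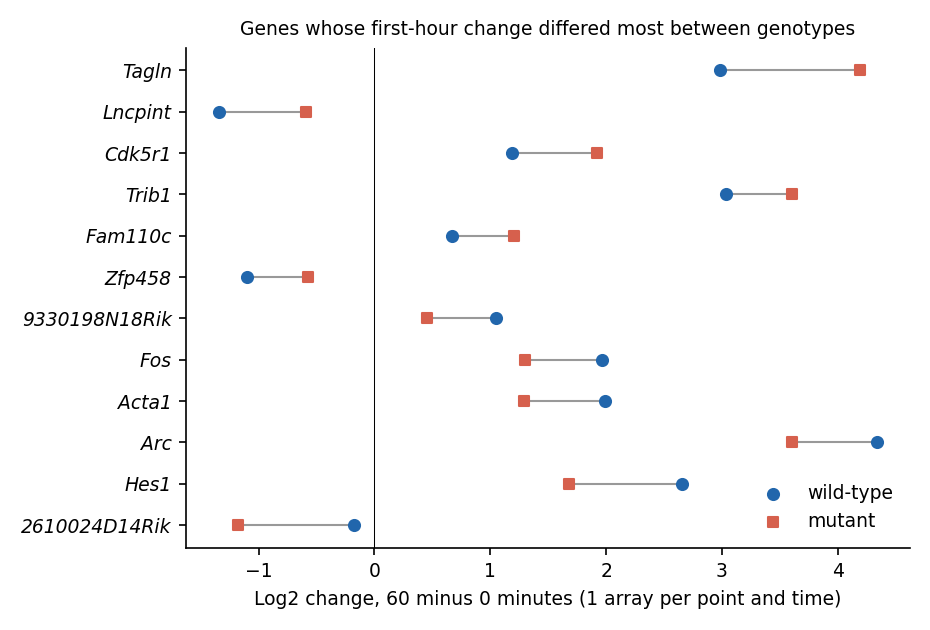
Log2 change from 0 to 60 minutes (x axis) in wild-type (circles) and mutant (squares) cells for the 12 genes whose change differed most, from 1 array per genotype and time, with no test of the difference. Tagln lies at 2.98 and 4.19, Hes1 at 2.66 and 1.68. The gaps of both depend on the offset, because 1 or more of their 0 minute values lay below the filter level.

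The genes with large rises were short. Their median length in the RefSeq table was 14.2 kb for the 131 genes at least 2-fold higher, against 23.5 kb for all tested genes with a length, and 22.1% were under 5 kb against 12.1%. Genes over 100 kb made up 6.87% of the 131 and 12.5% of all. The 29 genes at least 2-fold lower had a median of 16.8 kb with 24.1% under 5 kb, so the difference was in both directions. Among all called genes the medians were 21.4 kb for the higher and 17.9 kb for the lower genes.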

How the data were processed

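RNA of 6 NIH3T3 samples was measured on Affymetrix mouse expression arrays, 1 per genotype and time (0, 60 and 120 minutes). The authors deposited linear intensities per probe set. Per the submitters' processing notes they used PLIER in Affymetrix Power Tools 1.14.3.1. Background correction and scaling between arrays are not given in the sources used here. Of 45101 probe sets, 34945 have 1 gene symbol, 932 several, 9160 none, and 64 are controls. Identifiers of 34741 matched RefSeq (GRCm38.p6).

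Genes, each the probe set with the highest mean, were fitted on log2(intensity + 16) of the deposited values with limma 3.58.1 (R 4.3.3), with genotype as block, time as factor, a trend in the shrinkage and all 6 arrays, so that the 120 minute arrays add to the spread. There were 2 residual degrees of freedom, and shrinkage added 7.77. Tests were two-sided with Benjamini-Hochberg adjustment over all genes, and a gene was called at 0.05. Arrays were paired by their genotype label, and whether those of a genotype come from the same culture or clone is not given. Deviations of same-genotype arrays from their time's mean correlated across genes at 0.70 (0 and 60 minutes), 0.66 (0 and 120) and 0.60 (60 and 120). On simulated data for this comparison over 10916 genes, 88.1% of 67 changes of log2 0.5 were called. All 67 of log2 1 and all 66 of log2 2 were called too. So were 25 of 10716 unchanged genes (0.233%), beside 59, 67 and 66 true calls. The simulated noise was independent between arrays and held no genotype effect. Fewer genes were changed in it than were called in the data.

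Named genes are the 15 largest rises and falls, up to 4 members per list by size, and the 6 per direction that differ most between genotypes. Another probe set above the filter level is given where its change is opposite or under 50% of the gene's. Promoter windows were searched on both strands over the 250 bases before the start for the CArG box, an NF-kB site, the cyclic AMP element TGACGTCA and its part TGACG, the AP-1 motif TGANTCA, the EGR motifs GCGTGGGCG and then GCGGGGGCG, the TATA box TATAAA, the NF-Y motif CCAAT, the TEAD motif GGAATG, the E-box CACGTG, the forkhead motif GTAAACA and the SP1 motif GGGCGG. The members, the 36 gene lists and the rules were chosen with earlier results of these data known. The result of 1 of the lists is not reported here. The number of arrays limits the precision. Alternatives were the offset (1, 64), the filter (none, 60th percentile), the mean of a gene's sets, quantile normalization, equal array medians, no trend, no block, the 4 arrays alone, and each array left out.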

Additional observations from a re-analysis of the deposited data

Results flagged for a closer look

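Outside the probe sets with a gene symbol, 9160 sets carry no gene name, and 2226 of them lay above the filter level. Of these, 16 (0.719%) were at least 2-fold higher in both genotypes at 60 minutes and 32 (1.44%) at least 2-fold lower. Among sets with 1 gene symbol above that level, 208 of 18911 (1.1%) were higher and 59 (0.312%) lower. They were taken up because they show changes in data that the comparisons by gene leave out. Sets paired with several genes gave 4 of 568 higher and 8 lower. No control probe set changed that much in either direction.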

How the results depend on the processing

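The 2 arrays per time, 1 of each genotype, limit what can be called. The genotype, as replicate block, mattered most: without it 350 genes were higher and 235 lower, and 590 probe sets higher and 422 lower, all of these genes being among the 801 and 1168. With array medians set equal 622 genes were lower. Without a trend in the shrinkage 840 probe sets were higher and 887 lower. At least 2-fold lower in both genotypes were 8 genes at offset 64 and 12 with the 60th percentile filter. The share of higher genes with the larger rise in wild-type cells, 35.8%, was 31.6% with the mean of a gene's probe sets, 49.0% after quantile normalization and 29.6% with equal medians, and it needs both genotypes. The causes were not tested. Leaving out 1 array gave 525 to 946 genes higher and 534 to 1570 lower, and 823 to 1371 probe sets higher and 782 to 1444 lower. With 1 genotype alone, 142 and 167 genes were at least 2-fold higher and 39 and 40 lower.

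Named genes gave 2560 values over these settings: 2365 kept direction and side of the threshold, 175 lost their call, 16 gained one and 4 changed sign. The sign changes were in uncalled ribosomal protein genes, Rps6 with the mean of sets (0.18), Rps9 (0.0129) and Rps14 (0.014) with equal medians, and Rps14 without the mutant array at 60 minutes (0.0266, the highest of a range from -0.1279 when 1 array is left out). Of 152 named genes called, 108 kept their call in all 16 settings that gave a value, all 30 largest rises and falls among them, and 48 pairs of gene and setting gave no value because the gene fell below the filter. Of 333 list medians recomputed, 127 moved by more than the spread between genotypes. With equal array medians, 5 of the 37 list medians changed sign.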

Other observations

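Genes at least 2-fold higher in both genotypes that no list holds included receptors and signalling proteins. They were picked after their values were seen. Ptger4, a receptor of prostaglandin E2, changed by 2.83 on the log2 scale, Epha2, an ephrin receptor kinase, by 2.68, and Tnfrsf12a, the receptor of the cytokine TWEAK, by 2.50. Gcnt2, a glycosyltransferase of blood group I antigens, changed by 2.72, Foxs1, a forkhead factor, by 2.36, and Palld, the actin-linked protein palladin, by 2.13. The zinc exporter Slc30a1 changed by 1.96, the kinases Sgk1 and Pim1 by 1.46 and 1.39, and Cd44, a hyaluronan receptor, by 1.05.

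Genes of long noncoding RNAs made up 287 of the genes tested, 2.63%. Of these 11 were higher and 38 lower, which is 1.37% of all higher and 3.25% of all lower genes. Among 13 tested Snhg genes, hosts of small nucleolar RNAs that were grouped after their values were seen, 6 were lower and none higher (limma). Snhg5 went from 1069 and 1217 to 512 and 616 (log2 -1.002), Snhg1 from 2570 and 2956 to 1604 and 1550 (-0.80), and Snhg7 from 407 and 399 to 244 and 280 (-0.59). Zfas1, a further host gene, went from 2529 and 2552 to 1539 and 1466 (-0.75), while Gas5 went from 4648 and 4585 to 4142 and 4055 and was not called (adjusted p = 0.052).

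Of 10847 pairs of tested genes that neighbour each other in the RefSeq table, 6 had both genes at least 2-fold higher in both genotypes. They were Rab23 and Bag2, Slc30a1 and Traf5, Plau and Vcl, Klf10 and Azin1, Trib1 and Myc, and Thbs1 and Gpr176. No pair had both genes at least 2-fold lower.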
